A study of Mus musculus with 2 samples.

Results

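The genes described are those of the fibroblast growth factor (FGF) pathway at its start and its brake, the ligands and receptors that start the signal and the Sprouty and Spred proteins that feed back on it. Members are protein-coding genes with the symbols Fgf plus a number, Fgfr1 to Fgfr4, Fgfrl1, Spry1 to Spry4 and Spred1 to Spred3. They number 33 of the 43346 gene rows measured. The subfamily lists hold 34 symbols, of which Spry3 matched no row and was not analysed here. The set holds 22 ligand genes and 11 receptor and feedback genes.

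The measurement was total RNA-seq of neural tube from newborn mice (postnatal day 0) of the B6NCrl strain, a C57BL/6N line. There was 1 group of 2 samples, each a neural tube from a single pup, and the pups came from the same pregnancy. Sex was not collected, no treatment is named, and there is no second group, so the samples show the levels in these pups and the spread between littermates. The labels give RNA longer than 200 bases, an input of 10 ng and added spike-in RNA. Gene rows held 26916916 estimated read counts in pup 1 and 40003518 in pup 2. Levels are given in TPM, a length-scaled unit with the same total in each library that allows comparison between genes, as the mean ± SD over the pups (n = 2). With 1 group of 2 there is no test, and no p-value is given.

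Most FGFs are secreted proteins that bind receptor tyrosine kinases together with heparan sulfate and switch on the Ras and ERK cascade. ERK activity induces Sprouty genes, and Sprouty and Spred proteins damp the same cascade. In the spinal cord FGF signals are known for setting axial position in the early tube and later for the growth of astrocytes and of oligodendrocyte precursors. The intracellular FGFs, Fgf11 to Fgf14, lack a secretion signal and bind the tails of voltage-gated sodium channels.

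The tissue label was compared with marker lists. All 5 of 5 pan-neuronal, 5 of 5 progenitor, 5 of 5 astrocyte and 4 of 4 spinal cord position genes had a TPM of at least 1 in both pups. None of 4 forebrain and midbrain genes did. Markers of neighbouring tissue were also present, with 6 of 6 meningeal fibroblast, 4 of 5 skeletal muscle, 3 of 4 Schwann cell, 3 of 6 cartilage and bone and 2 of 6 dorsal root ganglion genes at that level. The 2 dorsal root ganglion genes were Prph and Calca. Avil, P2rx3, Scn10a and Trpv1 of that list lay below a TPM of 1 in pup 1, and only Trpv1 did so in pup 2. In such bulk samples, fewer cells of a type and less RNA per cell cannot be told apart.

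Of the 33 members, 21 reached a TPM of 1 in both pups and 12 stayed below it in both. No member passed in 1 pup only. Among all protein-coding genes 63.8% reached this level in both pups, so the members' count is near that background. The detected members were unevenly spread over the roles. All 11 receptor and feedback genes and all 4 intracellular FGFs were detected, against 6 of the 18 other FGF genes. The median member lay at a TPM of 6.42, beside 5.51 for all protein-coding genes.

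**Figure D1:**
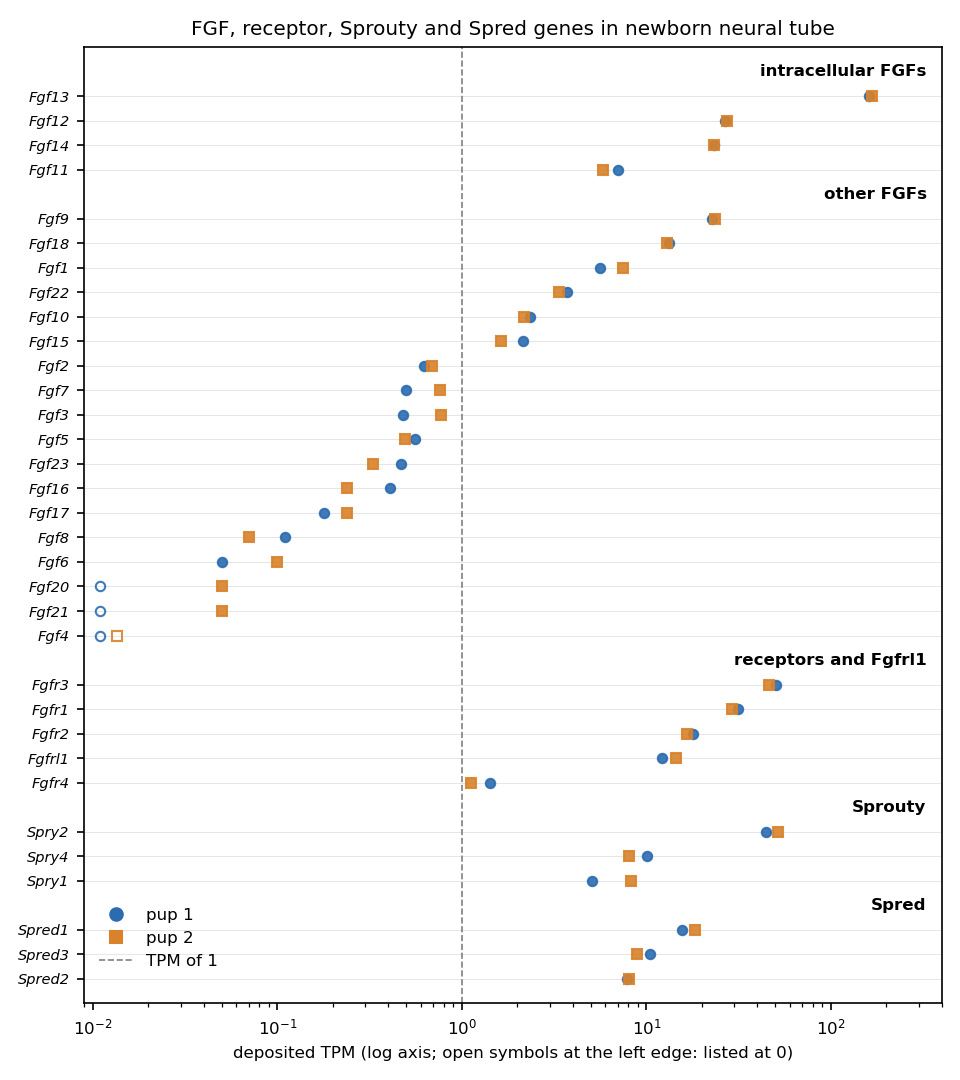
Deposited TPM (log axis) of each of the 33 members in pup 1 (circles) and pup 2 (squares), grouped by role and ordered by mean level; the dashed line marks a TPM of 1, and open symbols at the left edge are listed at 0. Fgf13 stands at the top of all members in both pups, and 12 ligand genes lie left of the line.

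The intracellular FGFs carried most of the ligand RNA. Their summed TPM was 217 in pup 1 and 223 in pup 2, against 53.0 and 54.9 for the 18 other FGF genes together. The intracellular share of all FGF TPM was thus 80.4% and 80.2% (80.3% ± 0.128, SD, n = 2). Fgf13 alone made up 59.6% ± 0.376.

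Fgf13 (chrX:59062145-59568071, minus strand, GRCm38), which binds sodium channels and also microtubules in developing neurons, was at a TPM of 161 in pup 1 and 166 in pup 2. Its mean of 163 ± 4.02 lay above 95.5% of protein-coding genes. Fgf12 (chr16:28160098-28753068) was at 26.6 and 27.2, so Fgf13 was 6.07 ± 0.0599 times as high on the TPM scale. Fgf14 (chr14:123977907-124677127), mutated in a hereditary ataxia, was at 23.2 and 23.4. Fgf11 (chr11:69796068-69801857) was the lowest of the group, at 7.05 and 5.8. The order Fgf13, Fgf12, Fgf14, Fgf11 was the same in both pups, and neighbours in it differed by more than their spread.

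The 4 genes share a layout of coding exons, and among the deposited transcripts those of Fgf13 and Fgf14 join alternative first exons to it. In Fgf11-202, Fgf12-201, Fgf13-201 and Fgf14-202 coding exons 2, 3 and 4 are 111, 104 and 199 bases long in each gene. The second coding exon is shown because it lets the relation between the 4 genes be read directly. Capitals mark the 57 of 111 positions at which all 4 genes carry the same base. The exons lie at chr11:69799666-69799776, chr16:28398278-28398388, chrX:59131840-59131950 and chr14:124136182-124136292, all on the minus strand (GRCm38, GENCODE M21), and are written 5′ to 3′.
Fgf11 coding exon 2: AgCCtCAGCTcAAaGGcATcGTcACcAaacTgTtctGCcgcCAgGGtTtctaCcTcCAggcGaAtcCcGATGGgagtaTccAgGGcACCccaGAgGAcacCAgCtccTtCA
Fgf12 coding exon 2: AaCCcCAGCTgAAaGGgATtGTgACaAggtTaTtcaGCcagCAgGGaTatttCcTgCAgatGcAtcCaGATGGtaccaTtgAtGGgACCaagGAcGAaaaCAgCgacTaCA
Fgf13 coding exon 2: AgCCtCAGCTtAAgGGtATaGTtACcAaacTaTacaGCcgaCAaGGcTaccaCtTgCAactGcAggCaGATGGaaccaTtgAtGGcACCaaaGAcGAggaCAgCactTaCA
Fgf14 coding exon 2: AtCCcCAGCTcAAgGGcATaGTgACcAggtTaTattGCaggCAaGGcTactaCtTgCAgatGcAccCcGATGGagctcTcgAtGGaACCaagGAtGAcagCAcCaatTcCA

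Between pairs of genes, identity of this exon ran from 64.9% (Fgf11 with Fgf12, and Fgf11 with Fgf14) to 72.1% (Fgf14 with Fgf12, and Fgf14 with Fgf13). Fgf11 was the most different in sequence and also the lowest in level, which describes these 4 genes only.

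Fgf13 RNA was spread over 3 groups of transcripts by the place of their first coding exon. The share of the gene's TPM starting at the exon of Fgf13-201, 2.11 kb upstream of the second coding exon, was 31.4% in pup 1 and 28.2% in pup 2. The exon of Fgf13-202, 34.1 kb upstream, held 25.1% and 37.8%. The most distant start, 435 kb upstream, is shared by Fgf13-203, Fgf13-205, Fgf13-206 and Fgf13-208 and held 43.1% and 33.7%. In Fgf13-205, Fgf13-206 and Fgf13-208 the coding part of that exon has 49 bases, and in Fgf13-203, which joins it directly to the common body, the annotated start lies further in and leaves 12 bases. In TPM all 3 starts thus carried a sizeable part, with the middle one higher in pup 2 and the distal one higher in pup 1. Part of the distal share comes from Fgf13-205, Fgf13-206 and Fgf13-208, which are only 575, 456 and 617 bases long. Few reads give such short transcripts a high TPM. Fgf13-205 had 175 and 266 estimated counts, beside 2084 and 2986 for Fgf13-201. In estimated counts, which are not divided by length, the distal share is smaller. The coding part of the first exon of 1 transcript per group is shown because it is what makes the protein starts differ; the start codon is in capitals. The exons lie on the minus strand at chrX:59133877-59134063, chrX:59166013-59166040 and chrX:59567140-59567188.
Fgf13-201 first coding exon: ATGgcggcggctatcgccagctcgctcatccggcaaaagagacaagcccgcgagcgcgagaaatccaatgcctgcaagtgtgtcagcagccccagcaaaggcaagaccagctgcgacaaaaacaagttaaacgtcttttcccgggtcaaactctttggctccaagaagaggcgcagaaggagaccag
Fgf13-202 first coding exon: ATGgctttgttaaggaagtcatattcag
Fgf13-205 first coding exon: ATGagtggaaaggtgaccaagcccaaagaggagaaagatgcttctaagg

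The 3 sequences have different lengths, 187, 28 and 49 coding bases. Fgf13-202 was at a TPM of 40.2 in pup 1 (deposited 95% interval 28.6 to 51.0) and 62.9 in pup 2 (48.7 to 67.4), so the intervals overlapped. Fgf13-203 was at 31.7 (19.3 to 40.7) and 9.86 (4.51 to 20.5), which also overlapped. Fgf13-201 was at 50.3 and 46.8. Fgf13-205 was at 21.35 and 21.02, and Fgf13-206 at 14.3 and 22.8. Fgf13-205, Fgf13-206 and Fgf13-208 are annotated without a complete 3′ end, so reads from the 3′ part of the shared body cannot be assigned to them. The division among the distal transcripts, and that between the 3 starts, is therefore an estimate.

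Fgf14 was mostly 1 form. Fgf14-202, whose first coding exon of 208 bases lies 540 kb upstream of the second, held 88.4% and 87.7%. Fgf14-201, starting 56.2 kb upstream, held 11.6% and 12.3%. Fgf11-202 held 58.5% and 58.4% and Fgf11-201 the remaining 41.5% and 41.6%. Fgf12 had a single deposited transcript, Fgf12-201, so its share was set by the annotation and says nothing on the usage of starts. The shares of Fgf14 and Fgf11 were nearly the same in both pups, unlike those of Fgf13.

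**Figure D2:**
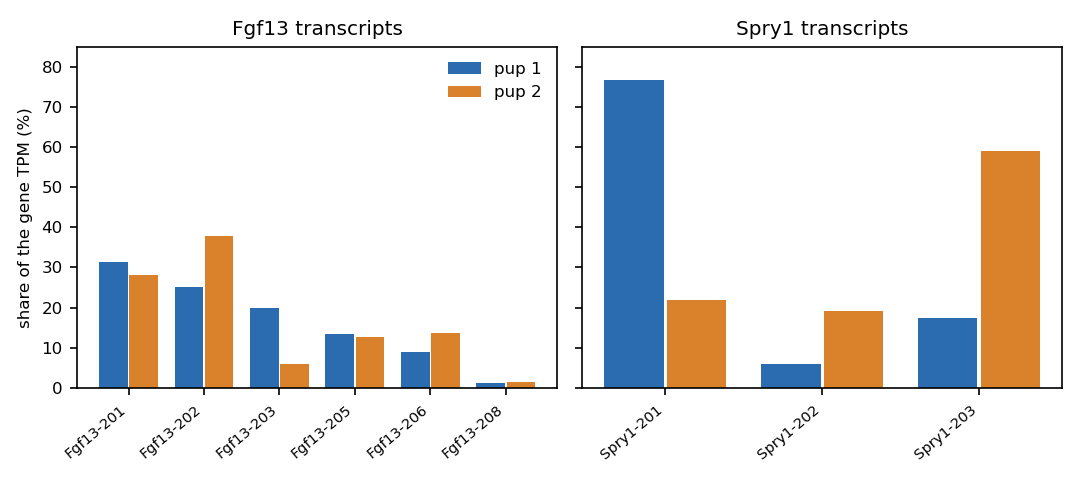
Share of the gene's TPM (percent) held by the transcripts of Fgf13 (left) and Spry1 (right) in pup 1 and pup 2, 1 bar per pup. Fgf13-202 stands at 25.1% and 37.8%, and the leading Spry1 transcript changes from Spry1-201 in pup 1 to Spry1-203 in pup 2.

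Genes of the sodium channel list, the channels that intracellular FGFs bind, were detected in 5 of 8 cases. Scn2a led at a TPM of 46.2 ± 4.09, followed by Scn1a at 35.4 ± 1.19 and Scn3a at 24.2 ± 2.40, each lower than Fgf13.

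Among the FGFs outside the intracellular group, 3 genes held 79.0% ± 1.32 of the TPM, namely Fgf9, Fgf18 and Fgf1. Fgf9 (chr14:58070547-58112720), a secreted factor first known for acting on glia, was at 22.6 in pup 1 and 23.5 in pup 2. Its level was 1.76 ± 0.0808 times that of Fgf18 and not separable from that of Fgf14. Fgf18 (chr11:33117430-33147400), of the Fgf8 subfamily, was at 13.2 and 12.9. Fgf1, acidic FGF, which is released without a classical signal peptide and binds every FGF receptor, was at 5.59 and 7.48. These 3 came from different subfamilies, and no other FGF outside the intracellular group reached a TPM of 4.

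The top transcripts of these genes were the full-length forms. Fgf9-201 held 55.2% and 61.4% of Fgf9, Fgf18-201 held 89.4% and 80.0% of Fgf18, and Fgf1-201 held 100% and 97.0% of Fgf1. A sizeable part of Fgf9 lay in shorter coding forms. Fgf9-203 held 20.91% and 20.25% and Fgf9-202 23.85% and 17.24%, each with 91 codons beside 208 in Fgf9-201. The rest of Fgf18 was Fgf18-202, with 98 codons beside 207 in Fgf18-201. For Fgf1 the deposited TPM of pup 1 lay just below its own interval of 5.68 to 8.85, since the intervals belong to the posterior means that were deposited beside the TPM.

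Fgf22, Fgf10 and Fgf15 were low but detected. Fgf22, known for organising presynaptic terminals, was at 3.72 and 3.38, from only 25 and 35 counts. Its exons overlap Rnf126 on the opposite strand, which was at a mean TPM of 86.9, and the strand setting is not given in the sources used here, so Fgf22 is uncertain. Fgf10 (chr13:118669791-118792115), a mesenchymal ligand of lung and limb buds, was at 2.35 and 2.18. Fgf15 (chr7:144896531-144900953), an endocrine FGF that the embryonic neuroepithelium also makes, was at 2.14 and 1.63, and its exons overlap the opposite-strand RNA Gm26793 at a mean TPM of 0.855. Each of these 3 genes had a single transcript with a TPM above 0, Fgf22-201, Fgf10-201 and Fgf15-201.

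The other 12 FGF genes lay below a TPM of 1 in both pups. Fgf7 was at 0.5 and 0.76, Fgf3 at 0.480 and 0.770, and Fgf5 at 0.560 and 0.490. Fgf2, basic FGF, much used to grow neural progenitors in culture, was at 0.620 and 0.690, from 3 and 7 counts. In pup 1 all of the Fgf2 signal was assigned to the noncoding transcript Fgf2-206, and the coding Fgf2-201 was at 0 and 0.260. Fgf2 also shares exon bases with Nudt6 on the opposite strand (mean TPM 6.88), so its value is uncertain.

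Fgf23, the phosphate hormone, was at 0.470 and 0.330, Fgf16 at 0.410 and 0.240, and Fgf17 at 0.180 and 0.240. Fgf8, the signal of the midbrain organiser and the tail bud, rested on 1 count in each pup, and Fgf6 on 1 and 3. Fgf20 had 0 counts in pup 1 and 2 in pup 2, and Fgf21, a metabolic hormone, 0 and 1. Fgf20 shares exon bases with the opposite-strand gene Micu3, at a mean TPM of 65.3, and is uncertain too. A count of 0 allowed a TPM of up to 0.187 for Fgf20 and 0.209 for Fgf21 in pup 1. Fgf4 had 0 counts in both pups, which allowed up to 0.0593 in pup 1 and 0.0385 in pup 2. These limits take 3 counts as the most that a count of 0 allows and cover counting error only.

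By subfamily, the summed TPM was 23.4 ± 0.573 for Fgf9, Fgf16 and Fgf20 and 13.4 ± 0.212 for Fgf8, Fgf17 and Fgf18. It was 7.19 ± 1.39 for Fgf1 and Fgf2, 7.07 ± 0.0283 for Fgf3, Fgf7, Fgf10 and Fgf22, 2.31 ± 0.424 for the endocrine FGFs and 0.600 ± 0.0141 for Fgf4, Fgf5 and Fgf6. In all but the last subfamily 1 or 2 genes were detected, and there none was. Low members that are close neighbours in the genome include Fgf3 and Fgf4, which lie 2.93 kb apart on chromosome 7, with Fgf15 31.3 kb beyond. On chromosome 6, Fgf6 and Fgf23 lie 44.7 kb apart.

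The receptor genes ranked in the same order in both pups. Fgfr3 (chr5:33721674-33737068), known in the spinal cord from ventricular zone progenitors and astrocytes, was at 50.1 in pup 1 and 46.4 in pup 2. Fgfr1 (chr8:25513654-25575718), the broadly expressed receptor, was at 31.4 and 29.0. Fgfr2, known from oligodendrocyte lineage cells and from epithelia, was at 17.8 and 16.5. Fgfr4 (chr13:55152640-55168759) was at 1.42 and 1.12. Fgfr3 was 1.60 ± 0.00416 times as high as Fgfr1, and Fgfr1 was 1.76 ± 0.00741 times as high as Fgfr2, on the TPM scale.

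As shares of the 4 receptors' TPM, Fgfr3 held 49.8% ± 0.0997, Fgfr1 31.1% ± 0.0186, Fgfr2 17.7% ± 0.0642 and Fgfr4 1.31% ± 0.145. The levels of neighbours in this order were apart by more than the spread between the pups. Fgfrl1 (chr5:108692382-108706924), a receptor-like protein without a kinase domain, was at 12.2 and 14.4, below Fgfr2 and above Fgfr4. The 4 kinase receptors together were at 101 and 93.1, which was 1.80 ± 0.146 times the sum of the FGFs outside the intracellular group. In GENCODE M21 the exons of Fgfr2 overlap those of Ctbp2 on the same strand (mean TPM 28.9). The deposited levels rest on GENCODE M4, whose exons were not examined, so whether reads were divided between the genes is not known.

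The ligand range of Fgfr1, Fgfr2 and Fgfr3 is known to depend on the second part of the third immunoglobulin domain, which is coded by 1 of 2 alternative exons called IIIb and IIIc. The IIIb forms, typical of epithelia, bind the Fgf7 subfamily, and the IIIc forms bind the Fgf8 and Fgf9 subfamilies. Fgfr4 has a single form of this domain. The pair of Fgfr3, the receptor with the highest level, is shown because the receptor shares below depend on telling such exons apart; capitals mark the longest run of bases that both exons share, 9 bases. On GRCm38 with GENCODE M21 the exons lie on the plus strand, IIIb at chr5:33731281-33731431 and IIIc at chr5:33732117-33732261.
Fgfr3 IIIb: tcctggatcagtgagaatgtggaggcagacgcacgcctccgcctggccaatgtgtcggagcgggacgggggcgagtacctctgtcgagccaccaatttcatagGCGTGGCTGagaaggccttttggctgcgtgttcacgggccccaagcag
Fgfr3 IIIc: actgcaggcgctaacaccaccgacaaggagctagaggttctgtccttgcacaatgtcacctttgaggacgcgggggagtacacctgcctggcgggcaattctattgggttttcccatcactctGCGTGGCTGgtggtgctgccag

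The Fgfr3 IIIc exon is 145 bases long and the IIIb exon 151. A read inside these exons that is longer than the shared run matches only 1 of the pair.

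Among Fgfr3 and Fgfr1 transcripts that hold 1 of the 2 exons, almost all RNA was IIIc. In Fgfr3 the IIIc transcripts summed to a TPM of 46.4 in pup 1 and 42.9 in pup 2, and the IIIb transcripts to 0.290 and 0. The IIIc share of IIIb plus IIIc was 99.4% and 100%. In Fgfr1 the IIIc transcripts summed to 24.1 and 24.9 and the IIIb transcripts to 0.220 and 0, a IIIc share of 99.1% and 100%. Transcripts with neither exon held a further 19.7% and 11.2% of Fgfr1 TPM and 6.85% and 7.59% of Fgfr3 TPM, and 1 Fgfr1 transcript with both held 3.01% and 2.80%. The IIIb values of both genes came from pup 1 and from 1 transcript each, Fgfr3-211 with 19.7 and Fgfr1-214 with 17.2 estimated counts. In pup 2 both had 0 estimated counts, and the upper ends of their deposited TPM intervals were 1.59 and 0.446.

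Fgfr2 kept a measurable IIIb part. Its IIIb transcripts Fgfr2-211 and Fgfr2-208 summed to 1.06 in pup 1 and 1.35 in pup 2, from 49.9 and 90.3 estimated counts. The lower ends of the deposited TPM intervals were 0.272 and 0.185 for Fgfr2-211. For Fgfr2-208 they were 1.3e-06 and 0.00108, so that transcript may be absent. Fgfr2-211 is 3053 bases long as deposited but 4311 in GENCODE M21, from which its IIIb exon was read. The IIIc transcripts summed to 6.43 and 6.79. The IIIc share was 85.9% and 83.4% (84.6% ± 1.72, SD, n = 2), lower in both pups than that of either other receptor. The share was 76.2% ± 0.782 with the posterior mean values of the deposited tables, and Fgfr2 was again the lowest of the 3, while Fgfr1 and Fgfr3 changed places (97.6% and 96.4%). A further 57.9% and 50.8% of Fgfr2 TPM lay in transcripts that hold neither exon, so the IIIc share describes only the remainder.

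**Figure D3:**
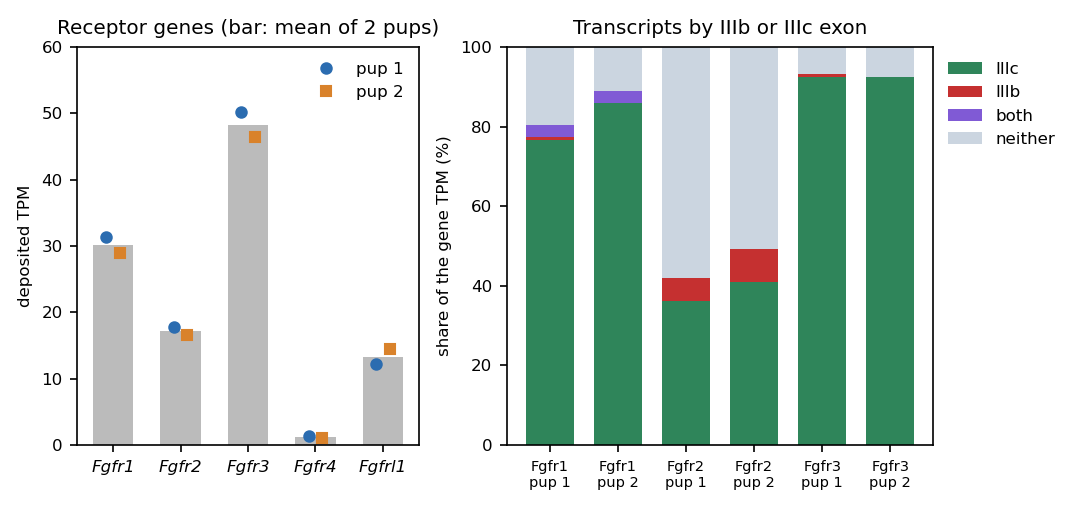
Left, deposited TPM of the receptor genes in pup 1 (circles), pup 2 (squares) and their mean (bars). Right, share of each gene's TPM (percent) in transcripts with the IIIc exon, the IIIb exon, both or neither, 1 bar per pup; the IIIb part is visible mainly in Fgfr2, at 5.98% and 8.18% of the gene.

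The leading transcripts of the receptors were the same in both pups. Fgfr3-201, with 800 codons, held 54.6% of Fgfr3 in pup 1 and 57.3% in pup 2, Fgfr3-209, with 801 codons, 24.1% and 20.0%, and Fgfr3-210 10.4% and 10.9%. Fgfr1-202, with 820 codons, held 45.0% and 45.3%, and Fgfr1-203, with 733 codons, 16.6% and 16.9%. Fgfr1-201, with 822 codons, held 10.9% and 21.2%, at a TPM of 3.43 (interval 1.30 to 4.68) and 6.14 (4.60 to 7.43), so the intervals overlapped narrowly. All 6 of these transcripts carry the IIIc exon.

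Fgfr2 was divided otherwise. Its top transcript Fgfr2-217, with 32.1% and 37.9% of the gene, has only 182 codons and neither of the alternative exons. Fgfr2-207, a IIIc form with 723 codons, held 21.6% and 25.4%, and Fgfr2-215, a IIIc form with 840 codons, 12.6% and 15.7%. The pup 1 TPM of Fgfr2-215, 2.25, lay above its own interval of 0.118 to 2.16, and by posterior means its shares were 5.96% and 10.1%. Fgfr4-201 held 74.5% and 100% of the low Fgfr4 RNA, and the noncoding Fgfr4-203 held 25.5% and 0%. Fgfrl1-201 held 88.1% and 94.9% of Fgfrl1.

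Transcripts annotated as retaining an intron were part of the signal in total RNA. They made up 18.3% and 11.2% of Fgfr1, 25.8% and 12.9% of Fgfr2, and 8.87% in both pups of Fgfr3. Among them, Fgfr1-206 held 12.9% and 8.92% of Fgfr1, and Fgfr2-221 held 12.8% and 6.71% of Fgfr2. In Fgfr1 and Fgfr2 the retained-intron share was higher in pup 1, the less deeply sequenced library, and the part of depth in this was not tested.

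The exon that codes for the first immunoglobulin loop, whose loss is known to raise ligand affinity, had different shares in Fgfr1 and Fgfr2. Among coding transcripts with at least 12 coding exons, it was present in 77.7% and 80.3% of Fgfr1 TPM (79.0% ± 1.89) but in 30.0% and 31.8% of Fgfr2 TPM (30.9% ± 1.26). All 6 such Fgfr3 transcripts hold it, so its share in Fgfr3 was set by the annotation and says nothing on usage. In Fgfr2 the share rests on Fgfr2-215 alone, and by posterior means it was 27.5% beside 76.8% in Fgfr1. The difference between Fgfr1 and Fgfr2 was many times the spread between the pups.

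The feedback genes were all detected. Spry2 (chr14:105891947-105896819), a Sprouty protein that blocks receptor signals to ERK, was at 44.8 in pup 1 and 51.4 in pup 2, a range that overlaps that of Fgfr3. Spry4 was at 10.0 and 8.04, and Spry1 (chr3:37639947-37644598) at 5.08 and 8.27. Spry2 made up 75.3% ± 0.822 of Sprouty TPM. Spry4 was above Spry1 in pup 1 and slightly below it in pup 2, so these 2 could not be ordered.

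The Spred proteins bind neurofibromin, a Ras inhibitor, and bring it to the membrane. Spred1 (chr2:117121374-117182279) was at 15.7 and 18.3, Spred3 (chr7:29158829-29170411) at 10.5 and 8.91, and Spred2 (chr11:19924375-20024026) at 7.82 and 8.03. Spred1 was highest in both pups, and Spred3 was above Spred2 in both. Spred3 overlaps Ggn on the opposite strand, which was at a mean TPM of only 0.345. The Sprouty share of Sprouty plus Spred TPM was 63.8% and 65.8% (64.8% ± 1.41). In expected counts not divided by length it was 48.7% ± 0.242, a scale on which longer transcripts weigh more.

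Spry2-201 and Spry4-201 are the single deposited transcripts of their genes. Spred1-201 held 92.8% and 96.8% of Spred1 and Spred2-202 held 60.4% and 62.3% of Spred2. Spred3-201 held 74.7% and 80.4% of Spred3, whose other transcript, with 25.3% and 19.6%, retains an intron. Spry1 was the exception, with Spry1-201 at 76.7% in pup 1 but 21.9% in pup 2, and Spry1-203 at 17.4% and 59.0%. The 3 Spry1 transcripts start within 133 bases of each other and share a coding sequence of 939 bases. The deposited intervals of the TPM overlapped for Spry1-201 (1.15 to 4.62, and 0.734 to 3.2) and for Spry1-203 (0.0011 to 3.31, and 3.13 to 5.96). Those of Spry1-202 did not overlap (0.048 to 0.905, and 0.963 to 2.35), with pup 2 higher. Among the 16 detected members with several transcripts, 14 had the same leading transcript in both pups, and Spry1 and Fgf13 did not.

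Differences between the littermates were small for most members. Ratios were taken as log2 of pup 2 over pup 1, from counts scaled by TMM (trimmed mean of M values), for the 18 members with counts averaging 100 or more. Only Spry1 differed by at least 1.5-fold, the size used as a call, while 2.01% of all genes of that depth did. Spry1 had 210 counts in pup 1 and 532 in pup 2 and was 1.72-fold higher in pup 2, a log2 ratio of 0.78 with a 95% counting interval of 0.55 to 1.02. The interval covers counting error only, and 1 library per pup gives no replicate check.

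The spread between the pups followed no single direction within the roles. Fgf1 was 1.40-fold higher in pup 2 (log2 ratio 0.48), and Spred1, Fgfrl1 and Spry2 had log2 ratios of 0.34, 0.32 and 0.27, of which that of Spry2 changed sign to -0.02 with spike-in scaling. Spry4 was at -0.25, Fgf11 at -0.21 and Spred3 at -0.13. The ratios of Fgf13, Fgf18, Fgf10, Fgfr1 and Fgfr3 all lay between -0.06 and 0.04. Those of Fgf12, Fgf14, Fgf9, Fgfr2 and Spred2 lay between 0.08 and 0.16. By ratios of TPM, Fgfr2 was at -0.11, Fgfr1 at -0.12 and Fgf18 at -0.04, so the direction of these 3 turned with the measure. Deposited TPM intervals of the 2 pups did not overlap for 6 of the 18 members, Spry1, Spry2, Spry4, Spred1, Spred3 and Fgfrl1, beside 23.6% of all genes. The count is not far above the share of all genes, and the intervals of the feedback gene Spred2 overlapped. No pattern by role is read from these 6 genes.

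**Figure D4:**
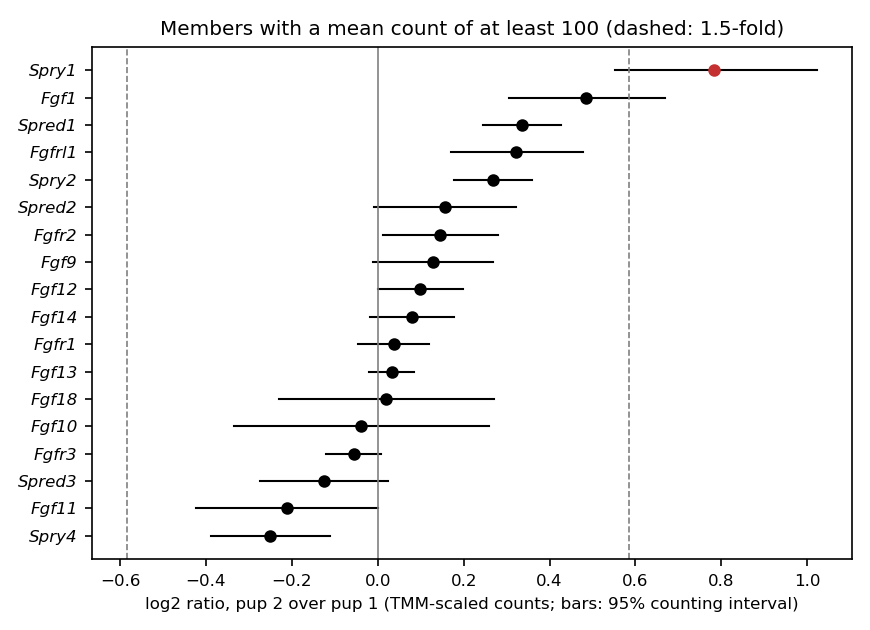
Log2 ratio of pup 2 over pup 1 for the 18 members with counts averaging 100 or more, from TMM-scaled counts, with 95% counting intervals as bars and dashed lines at 1.5-fold. Spry1, at 0.78, is the single point beyond a dashed line, and Spry4, at -0.25, is the lowest.

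The directions depend on the scaling. With TMM, 13 of the 18 were higher in pup 2, with a median of 0.09 beside 0.00 for all 13544 genes. Scaling to the spike-in counts, which were only 335 and 603, moved the median of all genes to -0.29, left 4 of 18 higher and put Spry1 at 0.49, Spry2 at -0.02, Spred1 at 0.04 and Fgfrl1 at 0.03. Of all genes called at 1.5-fold, 76.8% were higher in pup 2 with TMM, 54.3% by ratios of TPM and 11.4% with spike-in scaling.

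Markers of some neighbouring cell types and of axial position differed between the same pups. Of the meningeal fibroblast list 2 of 6 genes were called higher in pup 2, and its summed TPM was 1347 in pup 1 and 2722 in pup 2. Most of that gain was Ptgds, at 922 and 2190, while Foxc1 was 1.84-fold higher and Col1a1, Col1a2, Dcn and Lum were 1.29- to 1.43-fold higher and not called. The myelinating oligodendrocyte list had 4 of 4 tested genes called higher and sums of 246 and 512. The dorsal root ganglion list had 4 of 5 tested genes called higher and sums of 160 and 234. Most of these sums was Prph, at 94.8 and 126 and not called, and Calca, at 63.5 and 92.5. The other called genes differed more, with Avil at 0.7 and 8.55, P2rx3 at 0.58 and 4.95 and Scn10a at 0.19 and 1.35. The median log2 ratio of the tested dorsal root ganglion genes was 2.79. No gene of these lists was at 0 in either pup. Pan-neuronal sums were 2773 and 2555 and astrocyte sums 1508 and 1476, with 0 of 5 genes called in each list. In the cartilage and bone list Col2a1 was called lower in pup 2, and the list sums were 14.9 and 11.6. Schwann cell sums were 197 and 196 and skeletal muscle sums 56.2 and 55.9, with 0 genes called in either list. Of the spinal cord position list, Hoxc8 was called 2.34-fold higher in pup 2, at a TPM of 22.8 and 52.0, and Hoxd10 was called lower, at 105 and 63.2. Of the motor neuron list only Isl1 was called higher in pup 2, at the 1.5-fold limit, with a TPM of 12.3 and 14.4. Slc5a7, Slc18a3 and Chat were 1.27-, 1.10- and 1.02-fold higher in pup 2 and not called. The part of these cell types and of axial position in the Spry1 ratio was not tested.

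Below a mean count of 100, Fgf3 with 11 and 35 counts and Fgf7 with 19 and 50 counts had log2 ratios of 1.01 and 0.79. Their counting intervals reached from 0.105 to 2.24 and from 0.054 to 1.69, and their deposited TPM intervals overlapped between the pups. These 2 belong to the same subfamily, whose other members Fgf10 and Fgf22 had ratios of -0.04 and -0.07.

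Most listed genes of the rest of the pathway were detected, beside 63.8% of all protein-coding genes at a TPM of 1 in both pups. In 7 lists with 67 genes, 63 had counts averaging 100 or more, and 2 of these were called higher in pup 2 and 0 lower, with a median log2 ratio of -0.03. Over all genes of that depth 2.01% were called, so the count is near that background. Among co-receptors and FGF binding proteins, Fgfbp1, a carrier that releases FGFs from matrix, was at a TPM of 14.0 and 33.9 and was 2.52-fold higher in pup 2. Fgfbp3 was at 16.3 ± 0.106. Kl, co-receptor of Fgf23, was at 1.18 in both pups, and Klb, co-receptor of Fgf15 and Fgf21, was lowest at 0.125 ± 0.00707. The other called gene was Scn10a, a sensory neuron sodium channel that is also on the dorsal root ganglion list, at 0.190 and 1.35, 6.91-fold higher in pup 2.

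All 10 heparan sulfate core proteins were detected, led by Sdc3 at 124 ± 19.2, Gpc3 at 83.0 ± 12.8 and Gpc1 at 48.2 ± 5.61, with Sdc1 lowest at 7.34 ± 0.212. These carry the sugar chains that FGFs need to bind receptors. All 13 enzymes that make or trim the chains were detected, led by the sulfatase Sulf2 at 96.9 ± 5.01, Ext2 at 54.6 ± 4.80 and Hs3st1 at 37.4 ± 2.45, with Hs6st3 lowest at 2.44 ± 0.361.

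All 10 adaptors were detected, with Grb2 at 124 ± 6.98, Frs3 at 57.9 ± 3.22, Plcg1 at 25.6 ± 1.94 and Sos1 lowest at 6.94 ± 0.311. All 10 genes of the Ras and ERK cascade were detected, led by the kinase Araf at 319 ± 23.3, Hras at 194 ± 4.61 and Map2k2 at 177 ± 13.6, with Braf lowest at 15.3 ± 0.750. Of the targets and other feedback genes 12 of 12 were detected, led by the Ras inhibitor Rasa1 at 42.5 ± 1.77 and the FGF-induced transcription factors Etv4 at 35.2 ± 6.17 and Etv5 at 25.7 ± 0.622. Il17rd, a membrane antagonist of FGF receptors, was lowest at 1.57 ± 0.318. None of these 5 lists held a gene that differed 1.5-fold between the pups.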

How the data were processed

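Gene and transcript tables of both pups were used. Per the file headers, their columns are named as RSEM names them. The build was mm10 and the annotation GENCODE M4, per the deposited notes. Not given in the sources used here are the aligner, the tool version and the strand. The deposited expected counts are estimated reads that need not be whole. The deposited TPM values are brought to 1 common total, with the spike-in rows counted in. The deposited percent values give a transcript's share of its gene. The deposited signal bounds are intervals of the posterior TPM, to which counting error contributes.

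GENCODE M21 (GRCm38, equal to mm10) supplied symbols, exons and sequences, matched by ID without version. Of 129 member transcripts 128 matched, 110 with the same length as deposited, so exon content rests on M21. IIIb and IIIc transcripts are those holding exactly the upstream or downstream exon of the mutually exclusive pair, and transcripts with both were left out of the shares.

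Expected counts were rounded, scaled by TMM in edgeR 4.0.16 (R 4.3.3) over 18105 genes averaging 10 counts or more, and compared with a prior count of 2. Calls needed 1.5-fold and an average of 100 counts. The calculation was tested on simulated data. DESeq2 1.42.0 gave alternative size factors. Tables and figures were made with pandas 2.3.3, numpy 2.4.6 and matplotlib 3.10.9 in Python 3.11.15.

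Every member was named. Of each pathway list the 3 highest, the lowest and any called gene were named, except 1 gene that is not reported here, and of transcripts the leading one of each member with a mean TPM of at least 1 and, for receptors and intracellular FGFs, those with at least 10% of the gene in either pup. The members and lists were chosen with earlier results of these data known.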

Additional observations from a re-analysis of the deposited data

How the results depend on the processing

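The count of detected members was 23 at a TPM of at least 0.5, 19 at a TPM of at least 2, 22 with posterior mean values, and 21 in each pup alone. The intracellular share of FGF TPM was 79.2% with posterior mean values, 82.5% in expected counts and 80.6% over ligand genes averaging 10 counts or more, and 80.2% to 80.4% with either pup left out. The Fgfr1 share of the receptors was 31.2% with posterior means, 32.7% in expected counts and 27.4% with Fgfrl1 counted, and 31.1% to 31.2% with either pup left out. The Sprouty share was 48.7% in expected counts, 64.7% with posterior means, and 63.8% to 65.8% with either pup left out. Posterior means lowered the IIIc share to 97.6% for Fgfr1, 76.2% for Fgfr2 and 96.4% for Fgfr3, and expected counts put Fgfr2 at 88.7%. With either pup left out, the IIIc share ran from 99.1% to 100% for Fgfr1, 83.4% to 85.9% for Fgfr2 and 99.4% to 100% for Fgfr3. Chosen after seeing the data, posterior means put the first loop exon share at 76.8% for Fgfr1 and 27.5% for Fgfr2, and leaving out either pup gave 77.7% to 80.3% and 30.0% to 31.8%. Members differing 1.5-fold numbered 1 under 4 alternatives (DESeq2 size factors, total counts, a prior count of 0.5, ratios of TPM), each time Spry1, and 0 with spike-in totals. They numbered 3 at an average of 10 counts or more, with Fgf3 and Fgf7 added, and 4 with no filter, with Fgf20 added from 0 and 2 counts. Of the 18 ratios, 17 left their counting interval with spike-in totals and 3 by ratios of TPM. No paired analysis was possible because there is 1 group. Depth limits the low ligands, where 1 count in 1 kb of effective length is worth a TPM of 0.058 in pup 1 and 0.0376 in pup 2.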
